A study of Mus musculus with 9 samples.

Results

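Lyl1-/- progenitors were compared with wild type (WT) progenitors across every gene that the array measured. The comparison takes in 6 of the 9 arrays of the series, chosen by their titles: 3 of Lyl1-/- mice and 3 of WT control mice. The remaining 3 arrays are of E2A-/- mice and served to estimate the spread. In all 3 genotypes the cells came from bone marrow and were sorted as lineage-negative, CD117+, SCA-1+ and CD135+ (CD135+ LSK cells). The titles number the samples of a genotype as biological replicates. The labels used here give the genotypes with no strain, age or sex of the mice and no description of the targeted alleles. RNA was biotin-labelled and hybridised to Affymetrix 3-prime expression arrays, on which 1 intensity per probe set is reported. In sorted cell populations such as these, fewer cells of a type and less RNA per cell cannot be told apart.

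Lyl1 is a basic helix-loop-helix transcription factor of blood cells and a close relative of Tal1. Both bind DNA as dimers with E proteins such as those made by Tcf3 (E2A), Tcf4 and Tcf12, at a short motif called the E-box, within complexes that can hold Lmo2, Ldb1 and Gata factors. LSK cells contain the blood stem cells and multipotent progenitors, and those carrying CD135, the Flt3 receptor, are progenitors with a bias to lymphoid and myeloid fates and with little stem cell activity.

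Of 45101 probe sets, 64 were controls, and 24212 were brighter than the median probe set on 3 or more of the 9 arrays and were tested. These include 20402 with 1 gene in the annotation, which stand for 11961 genes. A probe set was called changed when its adjusted p from limma, over all probe sets tested, was under 0.05. Differences are given as log2 of Lyl1-/- over WT.

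Several arrays stood apart in ways the genotypes do not explain. WT 1 and WT 3 were closer to each other than any other pair, with 0 probe sets more than 2-fold apart against 6 to 371 in the other 35 pairs. Their mean entered the fit as 1 sample, so WT counted as 2 samples. The ratio of the 3-prime to the 5-prime actin controls was 10.62 on WT 2 and 10.13 on E2A-/- 2, against 2.85 to 4.23 on the other arrays. Xist, the RNA of the inactive X chromosome, read 2011 and 2001 on Lyl1-/- 1 and 2 but 79.7 on Lyl1-/- 3 and 84.6 to 93.1 on the WT arrays. The Y-linked gene Eif2s3y ran the other way, at 61.9 and 60.3 on Lyl1-/- 1 and 2, 238 on Lyl1-/- 3, and 264 to 348 on the WT arrays. The Lyl1-/- group thus held arrays with and without an Xist signal, while no WT array had one. Among the E2A-/- arrays, Xist read 2362 on E2A-/- 2, with Eif2s3y at 96.3, and 84.8 and 103.7 on E2A-/- 1 and 3. The sorting markers were measured in every group. The brighter probe set of Kit (CD117) read 465 to 508 in WT and 314 to 397 in Lyl1-/- cells. Flt3 (CD135) read 1052 to 1302 in WT and 672 to 1136 in Lyl1-/- cells. Neither passed the threshold, and Ly6a (SCA-1) was not analysed here.

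The Lyl1 transcript itself was lost. Its probe set, 1419120_at, read 1429, 1352 and 1443 on the WT arrays and 89.6, 79.2 and 92.0 on the Lyl1-/- arrays. The Lyl1-/- values lay near the array medians, 77.9 to 79.3, and far from the WT values. The difference was -4.01 (SE 0.164, n = 3 Lyl1-/- against 2 WT samples, limma adjusted p = 3.14e-05). The E2A-/- arrays read 1222, 825 and 900.

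Lyl1, Prdx2 and Tpm4 lie on the same chromosome and were the genes called against WT whose probe sets also differed between Lyl1-/- and E2A-/- cells, as described further on. Their promoters are shown to set these genes beside the E-box motif. The lines hold the 250 bases before the RefSeq start of each gene (GRCm38.p6, plus strand), at chr8:84701207-84701456 for Lyl1, chr8:84969372-84969621 for Prdx2 and chr8:72135038-72135287 for Tpm4. Capitals mark the motif CAGNTG read on either strand.
Lyl1: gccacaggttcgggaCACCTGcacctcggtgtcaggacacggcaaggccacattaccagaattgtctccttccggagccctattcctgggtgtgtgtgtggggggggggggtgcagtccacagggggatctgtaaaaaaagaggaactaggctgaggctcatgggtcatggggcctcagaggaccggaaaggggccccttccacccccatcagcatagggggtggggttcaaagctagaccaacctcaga
Prdx2: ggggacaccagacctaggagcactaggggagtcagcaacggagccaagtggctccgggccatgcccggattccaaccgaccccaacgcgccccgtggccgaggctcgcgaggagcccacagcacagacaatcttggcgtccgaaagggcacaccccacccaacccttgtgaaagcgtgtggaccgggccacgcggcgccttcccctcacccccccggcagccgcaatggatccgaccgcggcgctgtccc
Tpm4: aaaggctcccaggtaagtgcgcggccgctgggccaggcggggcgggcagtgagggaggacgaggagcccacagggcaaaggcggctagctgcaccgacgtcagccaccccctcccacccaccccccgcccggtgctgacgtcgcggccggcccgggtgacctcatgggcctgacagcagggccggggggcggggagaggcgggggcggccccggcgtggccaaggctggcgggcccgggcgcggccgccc
The Lyl1 window held 1 match, and the windows of Prdx2 and Tpm4 held 0. Across 27025 genes of the table, each at its first listed start, 44.5% had a match in the same window. Of the 36 genes called, 29 were in the table and 9 of these, 31%, had a match. AGATAA, the motif of Gata factors, read on either strand and allowed to share letters with an E-box match, occurred in 10.3% of all windows and in 0 of the 29. No match says only that these letters are absent from this window.

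Beyond Lyl1, a small set of probe sets separated the genotypes. In all, 63 probe sets were called, 0.26% of those tested, with 45 lower (0.186%) and 18 higher (0.0743%) in Lyl1-/- cells. The smallest called difference was 0.64 in size and the median was 1.26, and 41 were beyond 2-fold, 29 lower and 12 higher, where 0.376% of probe sets tested were. Taking each gene by its brightest probe set, 27 genes were called (0.226%), 18 lower (0.15%) and 9 higher (0.0752%). In each of the 63 the 3 Lyl1-/- arrays lay to one side of all WT arrays. This held for 21.5% of all probe sets tested. The median range among the 3 Lyl1-/- arrays was 0.20 for the called probe sets and 0.23 for all tested. The median difference over all probe sets was -0.008. The count changed when single arrays were left out. It was 16 without Lyl1-/- 1, 19 without Lyl1-/- 2, 75 without Lyl1-/- 3, 60 without WT 1 and 66 without WT 3. Each of the 63 kept its sign in these fits. Leaving out WT 2 leaves 1 WT sample, so no count is given for it here. Fits without a Lyl1-/- array also have fewer samples, and the part of this in the count was not tested.

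**Figure D1:**
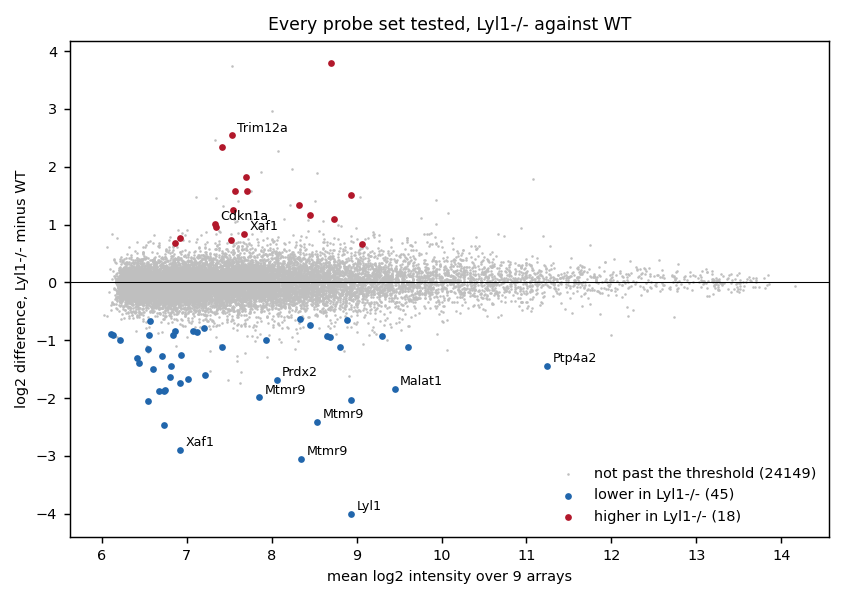
Log2 difference (Lyl1-/- minus WT) of each tested probe set against its mean log2 intensity over 9 arrays; grey points did not pass the threshold, blue and red points were called lower (45) and higher (18). Lyl1 has the lowest value, -4.01, and Ptp4a2, at -1.45, is the brightest called probe set.

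Of the 63, 47 belong to 36 genes, 23 lower, 12 higher and 1 (Xaf1) with a probe set each way. The other 16 carry several genes (4) or none (12) in the annotation. Among those without a gene, 1455869_at read 74.1, 82.1 and 78.2 in WT and 1068, 840 and 1451 in Lyl1-/- cells, a difference of 3.79 (SE 0.264, limma adjusted p = 0.00109). It was the largest increase among the called probe sets, and its E2A-/- values, 613 to 1056, were also high. The E2A-/- and Lyl1-/- comparisons share the WT arrays, so values of the 2 knockouts are set side by side here without a count. Many of the called genes described next had E2A-/- values near their Lyl1-/- values, so these changes were not particular to Lyl1-/- cells.

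**Figure D2:**
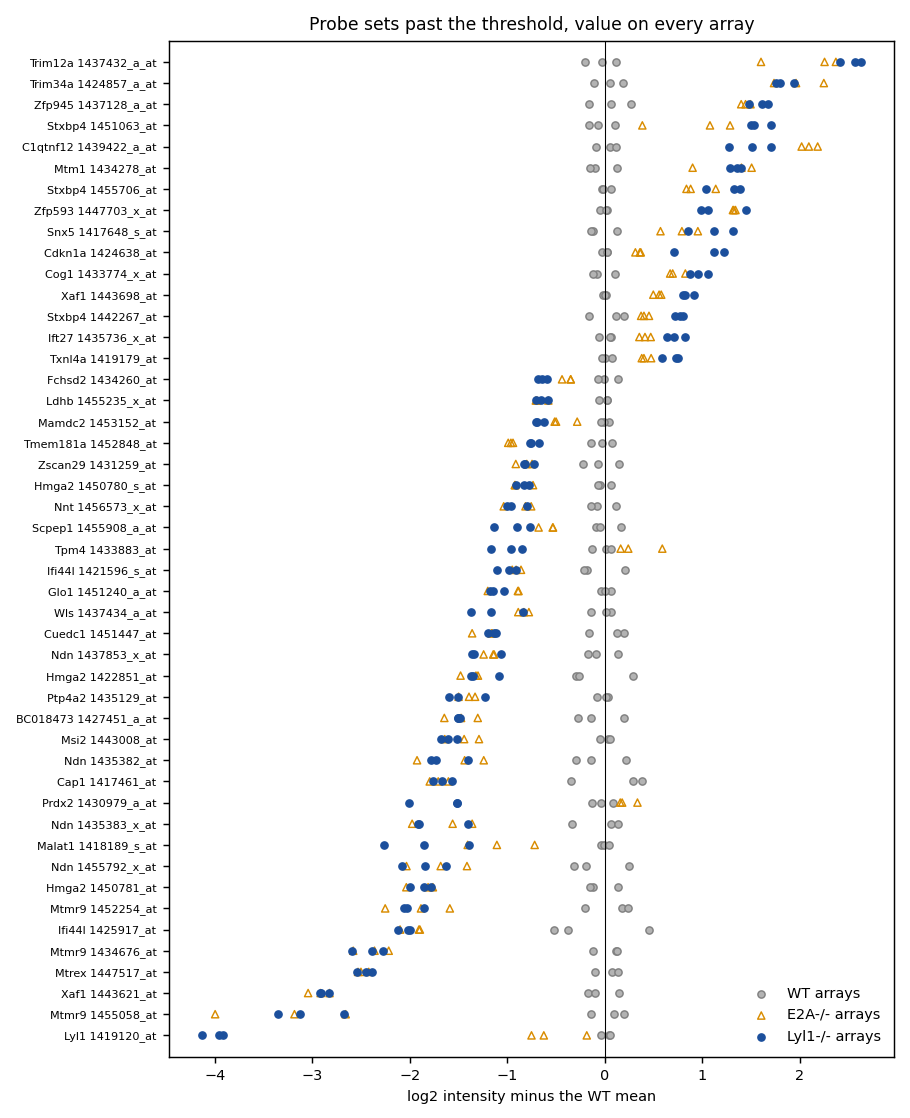
Log2 intensity minus the WT mean of the 47 called probe sets with 1 gene, on each WT (grey), E2A-/- (open triangles) and Lyl1-/- (blue) array. The Lyl1-/- points lie to one side of the WT points in each line. The E2A-/- triangles lie farthest from the Lyl1-/- points for Lyl1, Prdx2 and Tpm4. In other lines, such as those of Cdkn1a and Fchsd2, they also lie apart, at smaller distances.

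The genes that fell in Lyl1-/- cells at several probe sets included a phosphatase relative, a chromatin protein and an imprinted gene. Mtmr9 encodes a myotubularin relative without phosphatase activity that partners active family members. Its probe set 1434676_at read 1215, 1027 and 1224 in WT and 186, 214 and 231 in Lyl1-/- cells, with no overlap (-2.41, SE 0.145, limma adjusted p = 0.00055). All 3 of its probe sets fell, with differences of -1.98 to -3.05. At 1434676_at the E2A-/- arrays read 218, 241 and 187. Hmga2 encodes a chromatin protein of the HMGA family that is abundant in fetal stem cells. Its probe set 1450781_at read 236, 282 and 230 in WT and 70.7, 74.4 and 63.9 in Lyl1-/- cells (-1.88, SE 0.129, limma adjusted p = 0.00109). Its other 3 probe sets stood at -0.84 to -1.27, and 3 of its 4 were called. At 1450781_at the E2A-/- arrays read 75.4, 72.8 and 62.4. Ndn, an imprinted growth-restraining gene active in stem cells, had 4 of its 5 tested probe sets called, from -1.26 to -1.85, and the fifth was at -0.64. Its probe set 1437853_x_at read 203, 238 and 192 in WT and 84.1, 85.2 and 104 in Lyl1-/- cells. Those Lyl1-/- values approach the array medians, where a constant background understates a fall.

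Ifi44l, a gene induced by interferon, fell at both tested probe sets, with differences of -2.05 and -1.0. At 1425917_at the WT arrays themselves spread from 170 to 334, while the Lyl1-/- arrays read 56.1 to 61.0. Glo1, the glyoxalase that clears methylglyoxal, read 1229 to 1314 in WT and 559 to 616 in Lyl1-/- cells at 1451240_a_at (-1.11, limma adjusted p = 0.0107). Its other 3 probe sets were at -0.58 to -0.91 and were not called. Ldhb, a subunit of lactate dehydrogenase, had 1 of 4 probe sets called (-0.65), and its others lay at -0.66 to -0.73. Nnt, the mitochondrial transhydrogenase that makes NADPH, was called at 1 probe set (-0.92), with the other tested at -0.56. In these 3 metabolic genes the tested probe sets pointed one way, although 1 of each passed.

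Among genes with higher values, Stxbp4, a syntaxin-binding protein, rose at 3 of its 4 probe sets, by 0.77, 1.25 and 1.58, and the other stood at 0.07. At 1451063_at the WT arrays read 113, 128 and 106 and the Lyl1-/- arrays 342, 387 and 336, with no overlap. Trim12a and Trim34a, neighbouring members of the TRIM family with roles in antiviral defence, also rose. Trim12a read 62.9, 69.1 and 55.6 in WT and 397, 341 and 380 in Lyl1-/- cells (2.54, SE 0.213, limma adjusted p = 0.00326). Its E2A-/- values were 305.5, 194.4 and 331.1. Trim34a read 88.3, 78.6 and 96.7 in WT and 287, 295 and 328 in Lyl1-/- cells at 1424857_a_at (1.83), while its other probe set stood at -0.24. Cdkn1a, the cyclin-dependent kinase inhibitor p21, read 119, 115 and 119 in WT and 272, 254 and 192 in Lyl1-/- cells at 1424638_at (1.02, SE 0.144, limma adjusted p = 0.0363). Its second probe set stood at 0.39 with adjusted p = 0.51 in limma. Ift27, a protein of intraflagellar transport, had 3 probe sets between 0.68 and 0.77, of which 1 was called.

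The 28 called genes with several tested probe sets differed in how far those probe sets moved together. In 15 genes no other probe set moved at least 0.5 times as far in the same direction, against 13 in which one did. This count is of distance and does not sort genes by agreement in sign. The 15 include Ifi44l, with both tested probe sets called lower, and the 13 include Msi2, with probe sets of both signs. In 3 genes every tested probe set was called: Mtmr9, Ifi44l and Xaf1. The latter, whose product opposes the apoptosis inhibitor XIAP, had 1443621_at at 417, 520 and 438 in WT and 66.3, 61.9 and 62.4 in Lyl1-/- cells (-2.89). Its other probe set, 1443698_at, was higher, with 147 to 150 in WT and 259 to 281 in Lyl1-/- cells (0.84). No single direction can therefore be given for Xaf1. The E2A-/- arrays read 62.4, 57.1 and 66.5 at 1443621_at, near the Lyl1-/- values.

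Mtrex encodes a helicase that feeds RNA to the nuclear exosome. Its probe set 1447517_at fell by 2.46, from 309 to 362 in WT to 56.8 to 63.2 in Lyl1-/- cells, but the brighter 1426718_at stood at -0.08. Prdx2, a peroxide-reducing enzyme, fell by 1.68 at 1430979_a_at, while its much brighter 1418506_a_at read 2235 to 2597 in WT and 2425 to 2499 in Lyl1-/- cells (0.06). Ptp4a2, a phosphatase of the PRL family, fell by 1.45 at 1435129_at, from 4441, 4823 and 4744 to 1550, 1655 and 2002, with its other tested probe sets at 0.03 and -0.10. Cap1, an actin-cycling protein, fell by 1.67 at one probe set and stood at 0.01 at the other. Each of these genes thus changed at 1 probe set and had another near 0.

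Msi2 encodes an RNA-binding protein that sustains stem cells. Its 7 tested probe sets ran from -1.60 (called, 1443008_at) through -0.82, -0.55, -0.21, -0.01 and 0.15 to 0.98, with both signs present. Malat1, an abundant nuclear noncoding RNA, had 7 probe sets that were all negative, from -0.09 to -1.84, with 1 called. At the called 1418189_s_at, Malat1 read 1338, 1365 and 1407 in WT and 284, 379 and 522 in Lyl1-/- cells (SE 0.26, limma adjusted p = 0.0363). The groups did not overlap, although the Lyl1-/- arrays spread by 0.88.

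Single called probe sets also fell in Cuedc1 (-1.15), Wls (-1.13), a carrier that Wnt proteins need for secretion, and Scpep1 (-0.93), a carboxypeptidase. Genes with 1 tested probe set that fell were BC018473 (-1.49), Tpm4 (-1.0), a tropomyosin of the actin cytoskeleton, Zscan29 (-0.79), Tmem181a (-0.73), Mamdc2 (-0.67) and Fchsd2 (-0.64), a membrane-trafficking protein. Increases at 1 of several probe sets were seen for Zfp945 (1.59), C1qtnf12 (1.5), Mtm1 (1.34), Zfp593 (1.16), Snx5 (1.10), a sorting nexin of endosomes, Cog1 (0.96), part of a Golgi tethering complex, and Txnl4a (0.69), part of the spliceosome. For Mtm1, the active founding phosphatase of the myotubularin family, the other 2 probe sets lay at 0.16 and -0.08. C1qtnf12, Snx5 and Txnl4a each had another positive probe set at least 0.5 times as far from 0, at 0.80, 0.56 and 0.69.

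**Figure D3:**
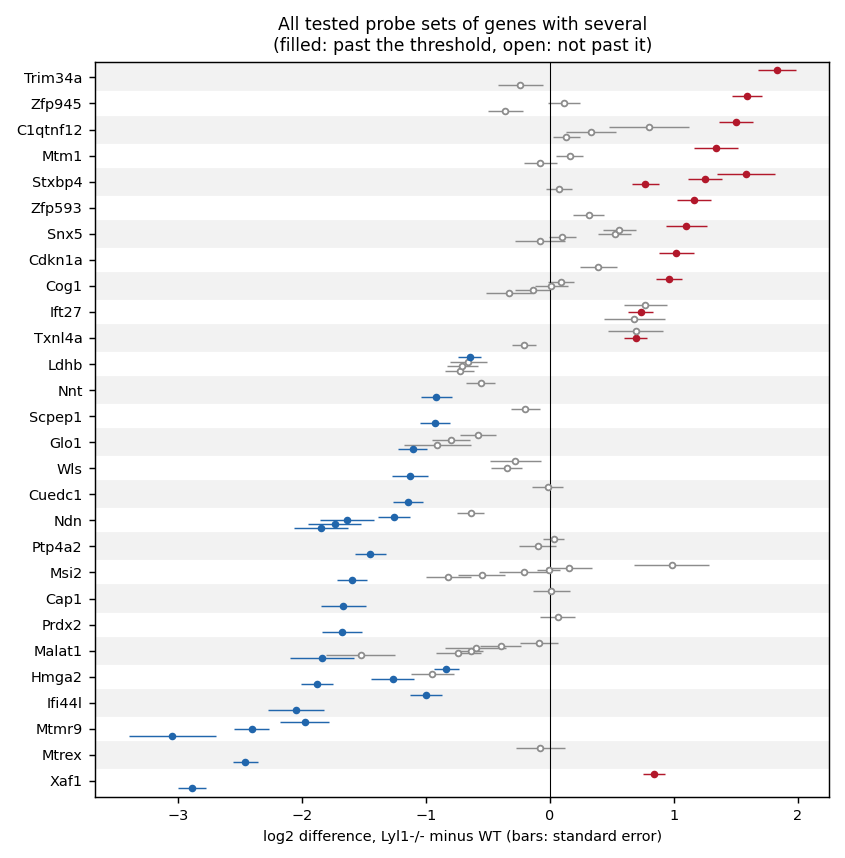
Log2 difference (Lyl1-/- minus WT, bars 1 standard error) of every tested probe set of the 28 called genes with several; filled points were called, open points were not. Mtmr9, Hmga2, Ndn, Glo1 and Ldhb have all their points on one side, whereas Xaf1, Mtrex, Prdx2, Ptp4a2 and Msi2 have points at or across 0.

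On the list of Lyl1's complex partners no gene besides Lyl1 passed the threshold. The list also holds other blood transcription factors, Id1, Id2 and the receptor Kit, so its counts and median are not those of the complexes alone. Of 26 measured members, 18 were negative, Lyl1 included, and 8 positive, with a median of -0.14 against -0.008 for all probe sets. Across all genes 51.4% were negative. Without WT 2 the median was -0.26. Lyl1 was the 1 member called, where 0.226% of all genes were, and at an unadjusted p under 0.05 limma gave 9 lower, Lyl1 included, and 1 higher. At that level 5.16% of all genes by their brightest probe set were lower and 3.95% higher. Of 14 members with several tested probe sets, 7 had probe sets of both signs. Among the E proteins, Tcf4 read 728, 847 and 719 in WT and 461, 502 and 566 in Lyl1-/- cells, without overlap (-0.62, limma adjusted p = 0.333). Of its other 4 probe sets, both at -0.50 were also without overlap, while 1434148_at (-0.03) and 1434149_at (-0.02) overlapped. Tcf3 stood at 0.14 and Tcf12 at -0.14. Tal1, the closest relative of Lyl1, read 322 to 472 in WT and 331 to 407 in Lyl1-/- cells (-0.01). The adaptor Lmo2 stood at -0.19 and Ldb1 at 0.09, while the Ldb1-stabilising Ssbp2 was at -0.44 and Ssbp3 at -0.07. The repressor partners Cbfa2t3 and Cbfa2t2 stood at -0.42 and -0.40, with the Lyl1-/- arrays below every WT array at these probe sets. Their other probe sets ran from -0.22 to 0.01 for Cbfa2t3 and stood at -0.35 and 0.07 for Cbfa2t2.

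Several other transcription factors of the list also lay below WT on each Lyl1-/- array. Erg, an ETS factor of stem cells, was at -0.50 (limma adjusted p = 0.292), Gata2 at -0.44 and Myb at -0.29. The second probe sets of Erg and Gata2 stood at 0.21 and -0.14, both with overlap, and Myb's 3 ran from -0.29 to 0.31. Gfi1, a repressor used in stem cells and granulocytes, was at -0.59, and its relative Gfi1b, used in the erythroid and megakaryocyte lineages, at 0.47. The remaining members, Gata1, Gata3, Lmo4, Runx1, Fli1, Spi1, Id1, Id2, Kdm1a and Kit, lay between -0.40 and 0.47.

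Lymphoid priming genes leaned lower in 2 of the 3 Lyl1-/- arrays, and 0 of the 26 measured members were called. Of these, 19 were negative and 7 positive (median -0.23). At an unadjusted p under 0.05 limma gave 5 lower and 3 higher, where 9.1% of all genes by their brightest probe set did so, 5.16% lower and 3.95% higher. Of 12 members with several tested probe sets, 6 had all of them negative and 6 had both signs. The list's medians on Lyl1-/- 1, 2 and 3 were -0.42, -0.28 and 0.09, so the arrays differed in sign. The 2 arrays with negative medians carried the Xist signal, and the median was -0.05 with that signal as a covariate. It was -0.10 without WT 2, -0.15 without Lyl1-/- 1 and -0.36 without Lyl1-/- 3.

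Dntt, the terminal transferase of early lymphoid cells, read 3795, 4171 and 3916 in WT and 2851, 2939 and 4362 in Lyl1-/- cells (-0.27, limma adjusted p = 0.76). The groups overlapped through Lyl1-/- 3. Flt3 followed the same order, at 672, 742 and 1136 against 1052 to 1302 in WT (-0.49, adjusted p = 0.641 in limma). Notch1 (-0.52), Ighm (-0.56), Ccr9 (-0.57), Mn1 (-0.45), Ikzf1 (-0.23), Bcl11a (-0.22), Blnk (-0.34) and Il7r (-0.30) overlapped between groups as well. Without overlap, Foxo1, a factor of early B cells, stood at -0.45, Cnn3 at -0.52 (called at -0.75 without Lyl1-/- 3), Rgs1 at -0.38 and Mef2c at -0.25. Cd52, a surface glycoprotein of lymphocytes, was higher on all 3 arrays, at 1171, 1125 and 1623 against 687 to 905 in WT (0.68, limma adjusted p = 0.33). Vpreb1, part of the surrogate light chain, stood at 0.37 and Selplg at 0.28 without overlap. Satb1, Sox4, Foxp1, Ltb, Ly6d, Igll1, Btla, Lsp1 and Hmgn3 overlapped at their brightest probe sets, between -0.24 and 0.54. Sox4, a factor of early lymphoid cells, had probe sets that disagreed. Its brightest stood at 0.13 with overlap, while 1419156_at read 624, 675 and 622 in WT and 499, 397 and 493 in Lyl1-/- cells (-0.49, limma adjusted p = 0.232) and 1419155_a_at stood at -0.43, both without overlap.

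Stem cell genes leaned lower on all 3 Lyl1-/- arrays. Of 29 measured members 28 were negative and 1 positive (median -0.28), and the medians on the Lyl1-/- arrays were -0.32, -0.25 and -0.28. Across all genes 51.4% were negative. The 2 members called were Ndn and Hmga2, the latter listed with its result known, where 0.226% of all genes were called. Meis1, a homeobox factor that maintains stem cells, read 959, 1005 and 945 in WT and 561, 576 and 522 in Lyl1-/- cells. The groups were clearly apart, but the difference of -0.82 (SE 0.143) missed the threshold at a limma adjusted p of 0.0914. It passed without E2A-/- 3, at an adjusted p of 0.0352 in limma. Mecom stood at -0.52, Hlf at -0.55, Prdm16 at -0.43 and Pdzk1ip1 at -0.60, each with the Lyl1-/- arrays below WT. Procr and Hoxa9 were at -0.42 and -0.64 and overlapped through Lyl1-/- 3, which read 498 and 1281. In 15 members the Lyl1-/- arrays lay below all WT arrays and in 0 above, against 21.5% of all probe sets lying to one side in either direction.

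The Gimap genes, a cluster of small GTPases of lymphoid and stem cells, were all negative, with 0 of 8 called and a median of -0.45. Gimap8 read 402, 442 and 370 in WT and 99.4, 104 and 270 in Lyl1-/- cells, without overlap (-1.55, SE 0.394, limma adjusted p = 0.256). It passed without Lyl1-/- 3, at -2.02. Gimap6 stood at -0.81, Gimap7 at -0.59 and Gimap1 at -0.48. Lyl1-/- 3 was again nearest to WT, with a median of -0.25 against -0.54 and -0.55 on the other Lyl1-/- arrays. Of 8 measured imprinted growth genes 6 were negative (median -0.38), and 1, Ndn, was called, where 0.226% of all genes were. Grb10, an adaptor that restrains growth-factor signals, and Sgce both stood at -0.51, and Igf2r at -0.45, without overlap.

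Granulocyte and monocyte genes leaned higher, on the same arrays on which the lymphoid genes leaned lower. Of 27 measured progenitor genes of this lineage 21 were positive and 6 negative (median 0.35), and 0 were called. Without WT 2 the median was 0.13. The medians were 0.41 and 0.40 on Lyl1-/- 1 and 2 and 0.09 on Lyl1-/- 3. Csf1r, the receptor for macrophage colony-stimulating factor, read 384, 290 and 379 in WT and 1310, 1117 and 532 in Lyl1-/- cells (1.47, SE 0.405, limma adjusted p = 0.312). Cebpa, a factor that starts granulocyte development, read 95.7 to 101 in WT and 172, 164 and 103 in Lyl1-/- cells (0.56). Hp stood at 1.22, Cst7 at 0.59 and Tyrobp at 0.40, each with the Lyl1-/- arrays above WT. Ctsg and Prtn3, proteases of primary granules, stood at 0.94 and 0.80, with Lyl1-/- 3 within the WT range in both.

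Markers of mature granulocytes and monocytes moved with these genes. Of the 15 tested, 0 were negative (median 0.36) and 0 were called, and 5 other listed markers were not tested. Their summed intensity was 2270 to 2802 in WT and 2589 to 4231 in Lyl1-/- cells. The medians were 0.39, 0.48 and 0.00 on Lyl1-/- 1, 2 and 3, and the value over all 3 turned to -0.18 with the Xist signal as a covariate. It was 0.23 without WT 2 and 0.21 without Lyl1-/- 1. S100a8 read 335 to 470 in WT and 894, 736 and 391 in Lyl1-/- cells, Ngp 163 to 172 against 468, 281 and 152, and Mmp9 about the array median in both groups. The share of mature cells in the sorted samples was not tested. Cd68, of macrophages, read 96.2 to 133 in WT and 278, 255 and 123 in Lyl1-/- cells, while Adgre1, Vcam1 and Siglec1 stayed near the array median.

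Genes of the megakaryocyte lineage had a median of 0.06 over 16 members, with 0 called, but a few stood higher. Selp, the P-selectin of platelets, read 148, 94.3 and 175 in WT and 838, 703 and 184 in Lyl1-/- cells (1.95, limma adjusted p = 0.355). Itga2b read 126 to 152 against 317, 255 and 190 (0.85), and Itgb3 71.0 to 76.0 against 135, 137 and 94.96 (0.70). In all 3 genes Lyl1-/- 3 was the Lyl1-/- array nearest to WT. Without Lyl1-/- 3, Selp (2.64) and Itgb3 (0.87) passed the threshold. Erythroid genes stood at a median of -0.10 over 14 members (-0.05 without Lyl1-/- 2, and 0.05 with the Xist signal as a covariate), with Gfi1b at 0.47 and Car2, a carbonic anhydrase, at -0.45.

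MHC class II genes showed the opposite order among arrays. Their median was 0.17 over 10 members, and -0.07, 0.05 and 0.64 on Lyl1-/- 1, 2 and 3. H2-Ab1 read 366, 259 and 328 in WT and 393, 450 and 709 in Lyl1-/- cells (0.74, limma adjusted p = 0.51), and 0 members were called. The median was 0.42 without Lyl1-/- 1 and -0.07 without Lyl1-/- 3. Dendritic cell genes had medians of 0.01, -0.06 and 0.27 on these arrays.

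Interferon response genes had members moving both ways. Of 34, each taken by its brightest probe set, 1 was called lower (Ifi44l) and 3 higher (Trim12a, Trim34a and the Xaf1 probe set 1443698_at), where 0.226% of all genes were called. The other Xaf1 probe set, 1443621_at, was called lower (-2.89), and the other tested probe set of Trim34a stood at -0.24. At an unadjusted p under 0.05 limma gave 6 lower and 6 higher, where 9.1% of all genes passed in either direction. With 18 negative and 16 positive, the median of -0.03 hides these members. Among 11 myotubularin phosphatases 1 was called lower (Mtmr9) and 1 higher (Mtm1), where 0.226% of all genes were called, and the median was -0.03. Mtm1 rose at 1 of its 3 probe sets, with the others at 0.16 and -0.08. S phase genes stood at 0.08 and G2 and M phase genes at 0.08, over 26 members each, with 0 called. Mcm7, of the replicative helicase, read 5020, 5430 and 5023 in WT and 2504, 2265 and 3749 in Lyl1-/- cells (-0.91, limma adjusted p = 0.187), and passed without Lyl1-/- 3 (-1.13). Besides Cdkn1a, the CDK inhibitor and quiescence list held Txnip at -0.59, Rb1 at -0.49 and Foxo3 at 0.78, none called. Of 17 p53 target genes Cdkn1a was the 1 called, where 0.226% of all genes were, and their median was -0.02. Neat1, the noncoding neighbour of Malat1, stood at -0.49 (limma adjusted p = 0.193), and 5 of 10 nuclear noncoding RNAs were negative.

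Receptors, early B and T genes, stress genes and other lineages had 0 members called. In the adhesion and homing list (median -0.05) Cxcr4, the receptor that retains progenitors in marrow, stood at 0.59 and Itgb7 at 0.50. Cytokine and chemokine receptors had a median of -0.05, with Il1r1 at -0.38 and Ifngr1 at 0.49. B lineage genes stood at a median of 0.03, with Cd79b at 0.56, and T lineage and Notch genes at -0.02. Immediate early genes (-0.04), heat shock genes (-0.01), mast cell and basophil genes (0.03) and cytosolic ribosomal protein genes (0.01) were near 0. Of 11 stromal markers 3 were tested, and Col1a2 read 415 on WT 2 against 72.2 to 81.4 on the other WT and the Lyl1-/- arrays.

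**Figure D4:**
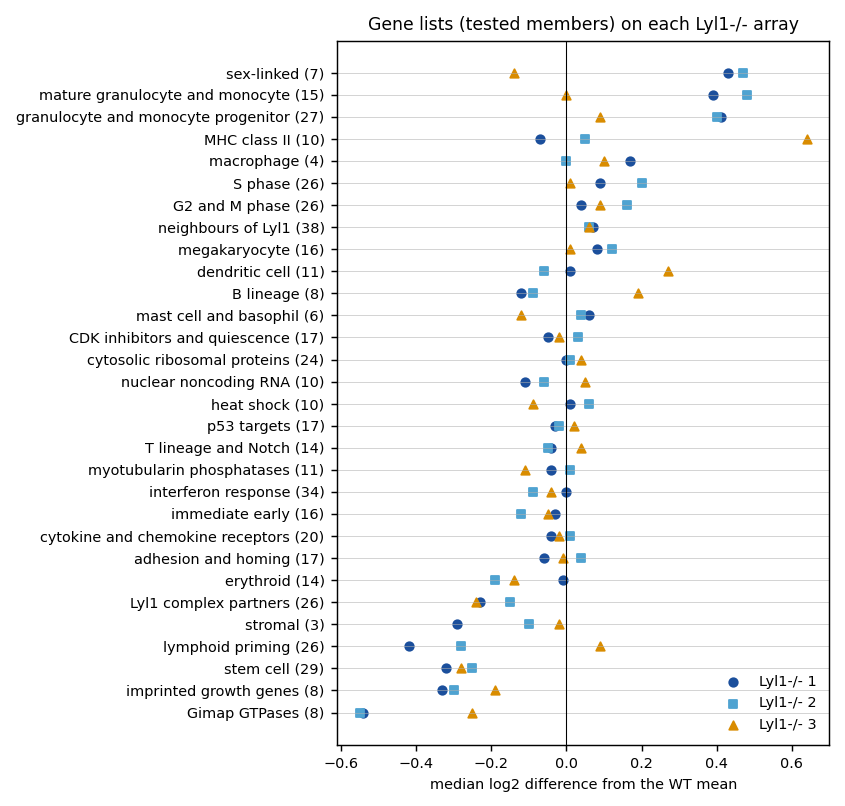
Median log2 difference from the WT mean of each gene list on Lyl1-/- 1 (circles), 2 (squares) and 3 (triangles), with the number of tested members in brackets. Stem cell genes have 3 close points, from -0.32 to -0.25, while lymphoid priming, granulocyte and MHC class II genes have Lyl1-/- 3 apart from the other points.

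The Lyl1-/- arrays were least alike at a small number of genes. After Xist, the widest ranges were those of Prg2 (2.37), H2-Aa (2.26), Myl10 (2.25), Lgals3 (2.19), Selp (2.19), Elane (2.15), Ms4a3 (2.10), Eif2s3y (1.98) and Socs3 (1.90). Elane, neutrophil elastase, read 523 and 635 on Lyl1-/- 1 and 2 but 143 on Lyl1-/- 3, which lay within the WT range of 119 to 180. Myl10, a myosin light chain, read 1696, 1445 and 355 against 155 to 250 in WT, so that each Lyl1-/- array was above WT. H2-Aa and Lgals3 went the other way, with Lyl1-/- 3 at 2341 and 365 and the other Lyl1-/- arrays below the WT arrays. Prg2, an eosinophil granule protein, was the exception, with Lyl1-/- 1 at 399 and Lyl1-/- 2 and 3 at 82.6 and 77.5. These genes did not pass the threshold with all arrays, and Myl10 (2.98) and Selp (2.64) did without Lyl1-/- 3.

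**Figure D5:**
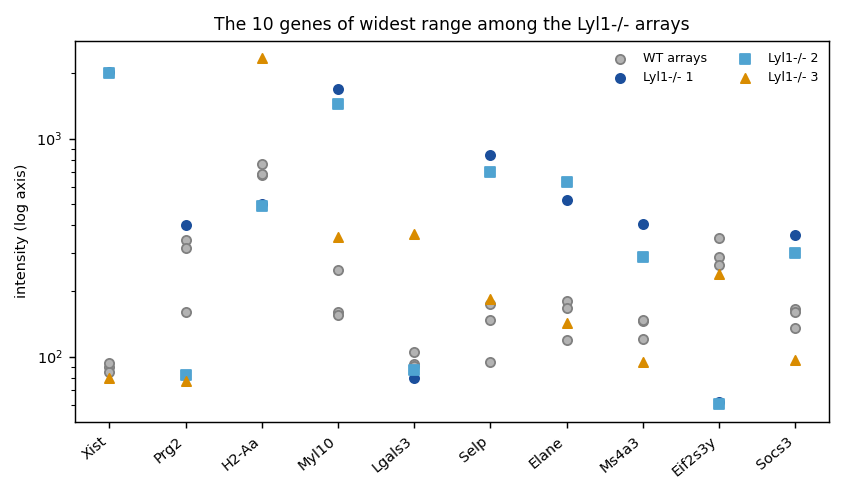
Intensity (log axis) of the 10 genes with the widest range among the Lyl1-/- arrays, on each WT array (grey) and on Lyl1-/- 1, 2 and 3. In every gene shown except Prg2, Lyl1-/- 1 and 2 lie close together and Lyl1-/- 3 lies apart.

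A direct comparison of Lyl1-/- with E2A-/- cells uses no WT array, and it called 12 probe sets (0.0496%). Of the 63 probe sets called against WT, 3 differed here. Lyl1 was one. Prdx2 at 1430979_a_at read 476, 427 and 421 in E2A-/- and 132, 93.5 and 132 in Lyl1-/- cells (-1.91, limma adjusted p = 0.00484). Tpm4 read 431, 320 and 338 in E2A-/- and 128, 159 and 147 in Lyl1-/- cells (-1.32, limma adjusted p = 0.0165). Cdkn1a, at 145 to 151 in E2A-/- cells, was lower there than on each Lyl1-/- array, but the difference did not pass (adjusted p = 0.256 in limma).

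Prdx2 lies 14 places from Lyl1 in gene order on chromosome 8 and Tpm4 93 places to the other side. Of the 50 genes nearest to Lyl1, 25 on each side, 38 had a tested probe set, and 1, Prdx2, had a called probe set. That was 1 of their 63 tested probe sets, where 0.26% of all probe sets tested were called. By brightest probe set, limma gave 4 of the 38 lower and 6 higher at an unadjusted p under 0.05. Across all genes 5.16% were lower and 3.95% higher. The Lyl1-/- arrays lay below all WT arrays in 6 and above them in 7, against 21.5% of all probe sets in either direction. The medians of these 38 genes were 0.07, 0.06 and 0.06 on the 3 Lyl1-/- arrays. Gadd45gip1, one of these neighbours, read 437, 383 and 389 in WT and 222, 222 and 181 in Lyl1-/- cells (-0.94, limma adjusted p = 0.132), while Rnaseh2a stood at 0.70. On chromosome 11, Cuedc1, Msi2, Scpep1 and Stxbp4 followed each other at steps of 3, 2 and 12 places in gene order. Trim34a and Trim12a were 2 places apart on chromosome 7, Cdkn1a and Glo1 18 on chromosome 17, and Mtrex and Nnt 25 on chromosome 13. Whether the knockout and WT mice differ in strain around such genes was not tested.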

How the data were processed

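The deposited values are 1 linear intensity per probe set and array, and the submitters' processing notes name RMA and oligo with no version given. The authors' values share one distribution, with array medians of 77.9 to 79.3 and a lowest intensity of 42.1 to 45.2, so differences of dim genes are understated. Genes follow the platform annotation in GEO; 34741 probe sets matched a RefSeq entry (GRCm38.p6), used for gene order and promoters. Log2 was taken without a pseudocount. Probe sets brighter than the median on 3 or more arrays were fitted with lmFit and eBayes of limma 3.58.1 (R 4.3.3) over the 3 genotypes in 8 samples (5 residual degrees of freedom), with Benjamini-Hochberg adjustment over 24212 probe sets. All adjusted p-values are from this fit, unless an array is named as left out. The p-values measure the spread between these samples, and the number of arrays limits the precision. In lists, a gene is represented by its brightest probe set. On simulated data with 50 changes per size, 14% were recovered at 0.5, 94% at 1 and 100% at 2, with 7 false among 161 calls. The simulation drew independent normal noise at each probe set's fitted spread, without the array differences described above. It therefore shows recovery under the fitted model only.

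Named were Lyl1, every gene with a called probe set, all members of the complex and lymphoid priming lists, up to 4 members of smallest p in other lists, the 10 genes of widest Lyl1-/- range and called neighbours of Lyl1. Some further list members were chosen after their values were seen. Members and lists were chosen with earlier results of these data known. Same-numbered arrays did not deviate together (correlations of -0.14 to 0.24), so no pairing was used. Alternatives changed the normalization, filter, probe set choice, covariates and arrays.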

Additional observations from a re-analysis of the deposited data

Results flagged for a closer look

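The hybridisation spike controls, added to each sample and outside the gene comparison, were brighter on the Lyl1-/- arrays than on the WT arrays. Their geometric mean over 9 probe sets was 2053, 1635 and 2294 on the Lyl1-/- arrays and 1161, 1241 and 1129 on the WT arrays. The E2A-/- arrays read 1045, 1522 and 2831. The part of this difference in the gene results was not tested.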

How the results depend on the processing

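Lyl1 passed the threshold under each of the 25 alternatives run, at -3.85 to -4.59, and so did 6 other called probe sets in every alternative that could test them: Mtmr9 1434676_at, Hmga2 1450781_at, Mtrex 1447517_at, Xaf1 1443621_at, Trim12a and Trim34a. The count of 63 was less stable, although each of the 63 kept its sign under the alternatives that kept probe sets separate. It was 196 with 9 separate arrays, 112 with a replicate block on the separate arrays, 23 with 1 probe set for each gene, 20 when the probe sets of each gene were averaged, 34 with the actin ratio as a covariate and 41 without WT 1 and WT 3. It was 16 with the Xist signal as a covariate, read as every Xist probe set above the array median, a definition made after the values were seen. Leaving out 1 array gave 16 to 75. Without WT 2 and E2A-/- 2, an alternative chosen after seeing the data, it was 18. The cause was not tested. Some of these fits leave 1 WT sample, whose spread is taken from the other groups. Among called probe sets of 1 gene, 1 changed sign, Xaf1 1443698_at, at -1.02 when averaged with 1443621_at. Sign changes of probe sets that were not called were not counted. Some list medians changed sign. That of mature granulocyte and monocyte genes went from 0.36 to -0.18 with the Xist signal as a covariate. That of MHC class II genes went from 0.17 to -0.07 without Lyl1-/- 3. Of 144 named probe sets that were not called, 11 passed under some alternative: Meis1 under 6, Gadd45gip1 under 3, Mcm7 and Kdm5d under 2 each, and Gimap8, Selp, Myl10, Itgb3, Cnn3, Neat1 and Col1a2 under 1 each. For Gimap8, Selp, Myl10, Itgb3 and Cnn3 this was the fit without Lyl1-/- 3. Of 750 list medians over 30 lists and the alternatives, 79 moved by more than the spread between the Lyl1-/- arrays. Median differences over all probe sets stayed within -0.015 and 0.004. The number of arrays and the background under dim probe sets limit what could be called: a change of 0.5 was recovered in 14% of simulated cases.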
